A study of Mus musculus with 2 samples.

Results

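The hyaluronan genes examined were 8 genes of hyaluronan synthesis, turnover and binding, taken by name from the 24421 gene symbols of the count table. They were the synthases Has1, Has2 and Has3, the hyaluronidases Hyal1 and Hyal2, the receptor Cd44, and the binding proteins Tnfaip6 and Vcan. All 8 were in the table. The RNA came from whole-layer skin of wild type C57BL6/J mice, with 1 library of skin held under 33% strain for 5 days and 1 library of skin without strain at day 5. The methods describe 8-week-old female mice in telogen, the resting phase of the hair cycle, a device glued to the back skin, and a strain that was raised each day. How many mice gave each library is not given in the sources used here. For hair growth the study names a control without the device and, apart from it, a group without strain. Which of these the sequenced skin without strain matches is not stated. The libraries held 14152379 counts without strain and 11648655 under strain. With 1 library per condition no difference has a replicate check. All intervals are exact 95% intervals that cover counting error only, since sequenced reads are not independent molecules, and they compare the libraries, not the conditions.

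Hyaluronan is a long unbranched sugar polymer of the extracellular matrix that holds water and is abundant in the dermis and between the living cells of the epidermis. Synthases at the plasma membrane build it from a pair of nucleotide sugars and extrude it, hyaluronidases and cell surface depolymerases cut it, and cells bind it through CD44 and related receptors. Binding proteins such as versican and TSG-6, the product of Tnfaip6, organize it into larger assemblies, and its turnover in skin is fast.

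Stretched skin held more transcript of 4 of the 8 hyaluronan genes than control skin, and less of 1. Tnfaip6 was 2.17-fold and Has1 2.1-fold higher, Has2 1.41-fold and Cd44 1.32-fold higher, whereas Hyal1 was lower, at 0.779 of its control level. For Has3, Hyal2 and Vcan the counting interval of the ratio included no difference. These ratios are of CPM, the count scaled to the total of its library. The interval lay wholly above 0 on the log2 scale for 18.1% of the 16255 genes with more than 3 counts in at least 1 library, and wholly below 0 for 33.5%. The median log2 ratio of the 8 genes was 0.24, and that of the 16255 genes was -0.12. The thresholds of the study's methods ask for a ratio of at least 2 or at most 0.5 between FPKM values (CPM per kilobase of exon) and for a product of the pair of values (EV) above 10. With 1 FPKM added to each value, which those methods do not name, Tnfaip6 was the 1 gene of the 8 that passed for upregulation, and 0 passed for downregulation. All 8 genes then passed the EV threshold, and 2.61% of the 10910 genes that passed it were upregulated and 2.44% downregulated. With no FPKM added, Has2 and Has3 fell under the EV threshold, and of the 6 genes left Has1 and Tnfaip6 passed for upregulation and 0 for downregulation, against 2.94% and 2.86% of 9683 genes. Scaled with TMM factors in place of total counts, every log2 ratio was 0.11 higher, and 5 of the 8 intervals lay above 0 and 0 below. The same scaling gave 4048 genes above and 3771 below in the whole table, against 2945 and 5452 with total counts.

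**Figure D1:**
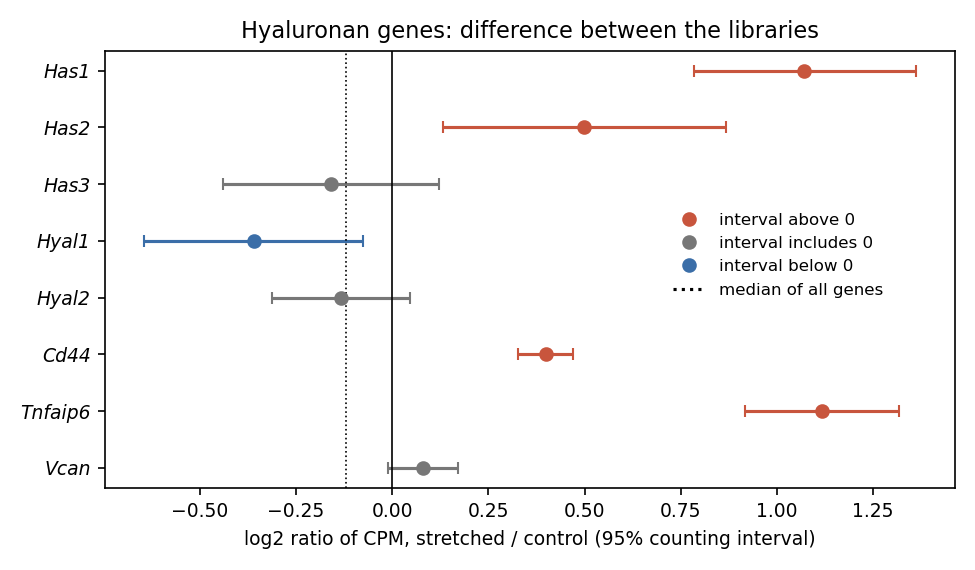
Difference between stretched and control skin for the 8 hyaluronan genes. The x axis is the log2 ratio of CPM, points are the ratio of 1 library to 1 library, bars are exact 95% counting intervals, and the dotted line is the median of all genes (-0.12). Tnfaip6 (1.12) and Has1 (1.07) lie farthest to the right, and Hyal1 (-0.36) is the only gene whose interval lies wholly below 0.

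The genes differed in level as well. In FPKM, Cd44 was the most abundant of the 8 in both libraries, at 31.8 in control skin and 41.9 in stretched skin, which placed it above 90.2% and 93.2% of the genes with more than 3 counts. In control skin Tnfaip6 (13.3), Hyal2 (12.9) and Vcan (10.3) followed, and the intervals of Tnfaip6 and Hyal2 overlapped. Hyal1 came next at 4.96. The synthases stood lowest in control skin, with Has3 at 2.78, Has1 at 2.49 and Has2 at 1.95 FPKM, and neighbours in this order overlapped in their intervals. In stretched skin Tnfaip6 stood apart from Hyal2, at 28.8 against 11.8 FPKM, and Hyal2 overlapped with Vcan (10.8). Has1 (5.23) lay above Hyal1 (3.86) there, with no overlap, and Has2 (2.76) and Has3 (2.49) overlapped at the low end.

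**Figure D2:**
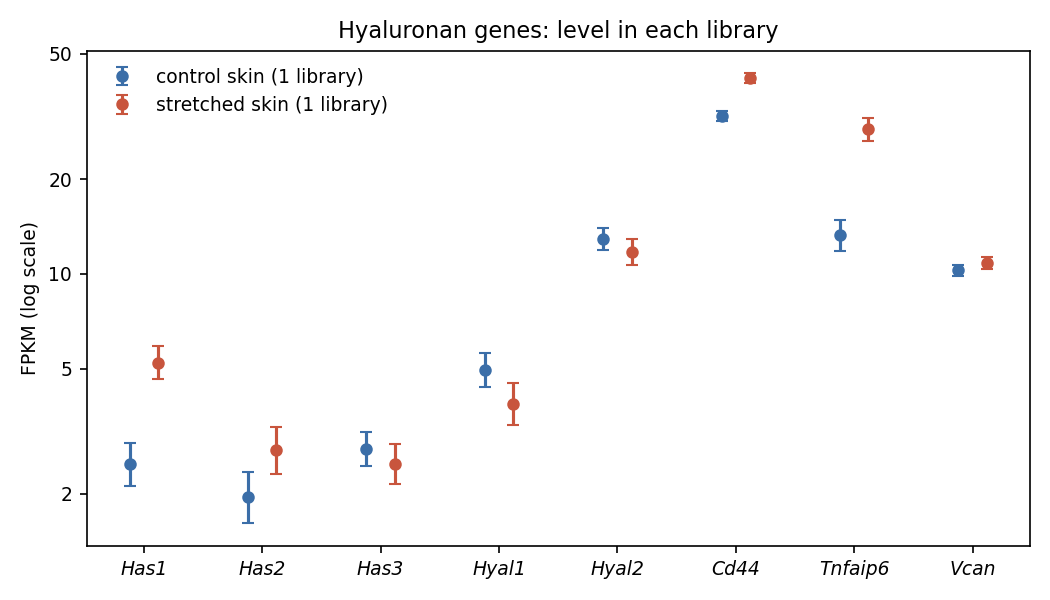
Level of the 8 hyaluronan genes in each library. The y axis is FPKM on a log scale, blue points are control skin, red points are stretched skin, and bars are exact 95% Poisson intervals of the count. Cd44 is highest in both libraries (31.8 and 41.9), and the pairs of points lie farthest apart for Has1 and Tnfaip6.

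The 3 synthases make the same polymer and are known to differ in where and when they are used, with Has2 the main enzyme of dermal fibroblasts and Has3 prominent in keratinocytes. Has1, on the minus strand of chromosome 17 of mm10 from 17843323 to 17855205, was counted 159 times without strain and 275 times under strain, the higher library. Its log2 ratio was 1.07 (interval 0.78 to 1.36), higher than that of 94.6% of measured genes. With 1 FPKM added it was not called, because this addition to its low values brought the log2 ratio to 0.84, and without that addition it was called. Has2, on chromosome 15 from 56665627 to 56694539, had 117 and 136 counts (log2 ratio 0.50, interval 0.13 to 0.87). The antisense gene Has2os had 7 and 5 counts and overlaps 4.30% of the exonic bases of Has2 on the other strand. Has3, on chromosome 8 from 106870242 to 106884566, had 251 and 185 counts, a difference that could not be detected at this depth (log2 ratio -0.16, interval -0.44 to 0.12). Chtf8, with 1835 and 1253 counts, overlaps 5.52% of the exonic bases of Has3 on the opposite strand. The labels name the TruSeq RNA kit, version 2, which does not mark strand. Reads that fall within the overlapping bases thus cannot be assigned to a gene or to its antisense partner.

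Ratios between genes of the same library do not depend on how the libraries are scaled. Has1 had 1.36 counts for each count of Has2 without strain and 2.02 under strain, a 1.49-fold change of the ratio (exact interval 1.07 to 2.06). The ratio of Has3 to Has2 went the other way, from 2.15 to 1.36, a change to 0.635 of the control value (interval 0.459 to 0.877). Has1 against Has3, a pair chosen after its values were seen, shifted 2.34-fold (interval 1.77 to 3.11). Per length, the share of the summed synthase FPKM that was Has1 was 34.5% without strain and 49.9% under strain. The share of Has3 was 38.5% and 23.8%, while that of Has2 was 27.0% and 26.3%. The makeup of the synthase transcripts thus differed between the libraries, with Has1 taking the larger share under strain and Has3 the smaller.

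Hyaluronidases cut hyaluronan into smaller pieces, HYAL2 being anchored at the cell surface and HYAL1 acting in lysosomes. Hyal2, on chromosome 9 from 107567945 to 107572779, was the more abundant in FPKM and had 601 counts without strain and 451 under strain (log2 ratio -0.13, interval -0.31 to 0.05). This log2 ratio lay near the median of all genes. Hyal1, its neighbour from 107576927 to 107581710, had 265 and 170 counts (-0.36, interval -0.65 to -0.08). With TMM scaling the interval of Hyal1 included 0 (-0.25, interval -0.53 to 0.04). In the annotation 51.9% of the exonic bases of Hyal1 also lie in exons of Hyal3 or Naa80 on the same strand. Naa80, listed as Nat6, had 398 and 351 counts and Hyal3 had 5 in each library, so the count of Hyal1 is uncertain. The ratio of Hyal1 to Hyal2 changed to 0.855 of its control value, with an interval that included no change (0.676 to 1.08). The counts of the 3 synthases, 527 without and 596 with strain, were set against those of both hyaluronidases, 866 and 621. This count ratio was 0.609 without strain and 0.960 under strain, a 1.58-fold difference (interval 1.35 to 1.85).

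CD44 is a cell surface receptor for hyaluronan that is carried by leukocytes, fibroblasts and basal keratinocytes. Cd44, on chromosome 2 from 102811141 to 102901665, was counted 3050 times without strain and 3311 times under strain, and was higher in the stretched library. The log2 ratio was 0.40 (interval 0.33 to 0.47), the narrowest interval of the 8 genes, and it was 0.51 with TMM scaling. The annotation lists 9 transcripts of Cd44, and a count per gene does not separate those with variable exons from the standard form. The macrophage genes, given with the other cell types further on, were higher by more than Cd44, and Cd44 counts per macrophage gene count were 0.335 without strain and 0.190 under strain, 0.568 of the control ratio (interval 0.537 to 0.600).

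TSG-6 is a secreted protein made in inflamed tissue, which binds hyaluronan through a Link module and moves heavy chains of inter-alpha-inhibitor onto it. Its gene Tnfaip6, also on chromosome 2 from 52038009 to 52056686, was counted 321 times without strain and 573 times under strain. The log2 ratio of 1.12 (interval 0.92 to 1.32) was higher than that of 95% of measured genes, and the call held under all 10 alternative settings of scaling, threshold or length. Tnfaip6 shares 0 of its 76-base stretches with other annotated transcripts, and 0 of its exonic bases overlap another gene. Versican is a large chondroitin sulfate proteoglycan of the dermis, also known from the dermal papilla, which binds hyaluronan through Link modules. Vcan, on chromosome 13 from 89655312 to 89742509, had 2098 and 1826 counts, summed over the 9 transcripts that the annotation lists. Its log2 ratio of 0.08 (interval -0.01 to 0.17) lay near 0, but with TMM scaling it was 0.19 with an interval above 0 (0.10 to 0.29). Tnfaip6 counts per Vcan count were 0.153 without strain and 0.314 under strain, a 2.05-fold change (interval 1.76 to 2.39). Relative to Vcan, Cd44 was 1.25-fold (interval 1.15 to 1.35) and Has2 1.34-fold (interval 1.03 to 1.74) higher in stretched skin. Against the fibrillar collagen genes Col1a1, Col1a2 and Col3a1 the picture was different. Vcan per collagen count in stretched skin was 0.550 of its value in control skin (interval 0.516 to 0.586), with summed collagen counts of 551170 and 872802. Of the 8 dermal papilla markers, given further on, 5 had intervals below 0, beside 33.5% of all genes. The part of these markers in the value of Vcan was not tested.

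**Figure D3:**
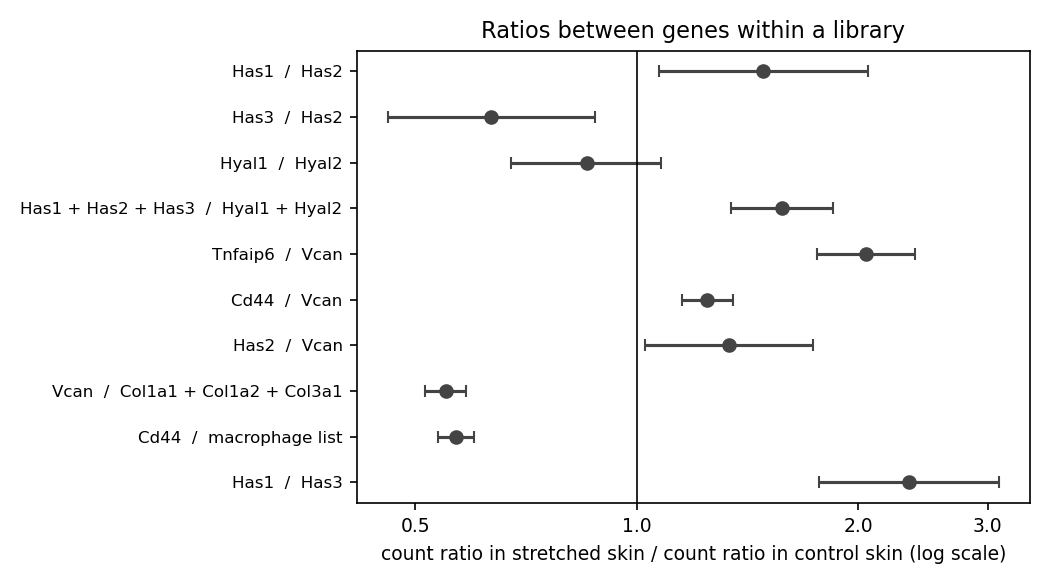
Change in the ratio between genes of the same library. The x axis, on a log scale, is the count ratio in stretched skin divided by that in control skin, and bars are exact 95% intervals. Has1 to Has3 (2.34) and Tnfaip6 to Vcan (2.05) lie farthest above 1, and Vcan to the collagen genes (0.550) and Cd44 to the macrophage list (0.568) lie below 1.

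The start regions of the hyaluronan genes were searched for 5 motifs in the 250 bases before the RefSeq start (GRCm38.p6), for which 6 of the 8 genes had an entry, all but Has2 and Has3. The motifs, read on both strands, were AP-1 (TGANTCA), CRE (TGACGTCA), TEAD (GGAATG), the TATA box (TATAAA) and NF-kappaB. Of 32851 such windows of all genes, 6.75% held AP-1, 1.55% CRE, 12.6% TEAD, 12.4% TATA and 7.25% NF-kappaB. Tnfaip6 held AP-1 beginning 142 bases before the start, and TEAD beginning 8 bases before it, inside an annotated exon. Has1 held CRE beginning 83 bases before the start. Hyal2 held NF-kappaB and TEAD, which share a base 229 before the start. No match was in the windows of Cd44, Hyal1 and Vcan. A match is a description of the letters, and binding was not measured. The 3 genes with a match outside exons are shown, since Tnfaip6 and Has1 had the largest ratios and Hyal2 an interval that included 0. Each runs 5′ to 3′ and stops where the next annotated exon of the gene begins, with motif matches in capitals. Those of Tnfaip6 and Has1 lie upstream of the annotated gene, and that of Hyal2 lies in an intron of its longer annotated transcripts.
Tnfaip6, chr2:52037863-52038008, plus strand: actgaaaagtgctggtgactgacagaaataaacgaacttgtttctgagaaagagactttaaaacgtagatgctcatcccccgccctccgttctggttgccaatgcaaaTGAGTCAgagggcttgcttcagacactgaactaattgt
Has1, chr17:17855206-17855438, minus strand: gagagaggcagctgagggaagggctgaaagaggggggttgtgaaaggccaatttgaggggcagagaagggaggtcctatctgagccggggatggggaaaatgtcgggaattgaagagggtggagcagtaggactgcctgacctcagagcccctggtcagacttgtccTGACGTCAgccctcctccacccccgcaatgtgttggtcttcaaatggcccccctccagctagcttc
Hyal2, chr9:107568913-107568982, plus strand: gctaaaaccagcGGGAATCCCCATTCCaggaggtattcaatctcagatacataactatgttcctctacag

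A further 53 genes that make the precursors of hyaluronan, cut it, bind it or act on its binding partners were listed beside the 8. Of these, 46 were measured, that is counted more than 3 times in either library, with a median log2 ratio of 0.04. For 19 of them the interval was above 0, for 8 below 0, and for the other 19 it included 0, where all genes gave 18.1% above and 33.5% below. With 1 FPKM added, 30 of the 53 passed the EV threshold. Of these, 1 was upregulated and 0 were downregulated, against 2.61% and 2.44% of all genes tested. Cemip and Acan, which had the lowest log2 ratios, did not pass the EV threshold and so could not be called. Of the 7 receptors, 4 intervals lay above 0 and 1 below, with a median of 0.77. Of the 6 measured lecticans and link proteins, 0 intervals lay above 0 and 1, that of Acan, below.

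Among the receptors Tlr2, a toll-like receptor that is also reported to respond to hyaluronan fragments, was the upregulated gene, with 98 counts without strain and 207 under strain (log2 ratio 1.36, interval 1.01 to 1.72). Stab1, an endocytic receptor of macrophages and sinusoidal endothelium, had 1435 and 2015 counts (0.77, interval 0.67 to 0.87). Lyve1, the hyaluronan receptor of lymphatic vessels, had 667 and 567 counts, with a log2 ratio near 0 (0.05, interval -0.12 to 0.21). Layn and Tlr4, named after their values were seen, had log2 ratios of 0.92 and 0.96. Hmmr, likewise singled out, encodes a hyaluronan binding protein of the mitotic spindle and had 313 and 154 counts (-0.74, interval -1.03 to -0.46).

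The enzymes upstream and downstream went both ways. Ugp2 makes UDP-glucose, from which UDP-glucuronic acid is formed, and had 4265 and 1993 counts (-0.82, interval -0.89 to -0.74), while Uap1, which makes UDP-N-acetylglucosamine, had 866 and 943 (0.40, interval 0.27 to 0.54). UDP-glucose also feeds glycogen synthesis, and the skeletal muscle and adipocyte lists below were lower in the same library, but their part in this value was not tested. Of the 7 precursor enzymes, 3 intervals lay above 0 and 1 below, beside 18.1% and 33.5% of all genes. Hexa, a lysosomal enzyme that trims sugars from the ends of fragments, had 1126 and 1763 counts (0.93, interval 0.82 to 1.04). Gusb, which removes terminal glucuronic acid, had 604 and 710 counts (0.51, interval 0.36 to 0.67). Genes on the opposite strand overlap 12.8% of the exonic bases of Hexa. Tmem2, a cell surface hyaluronidase, had 448 and 456 counts (0.31, interval 0.12 to 0.50). Cemip, a protein needed for hyaluronan depolymerization in skin fibroblasts, had 62 counts without strain and 23 under strain (-1.15, interval -1.91 to -0.44). Hyal4 had 21 and 10 counts with an interval that included 0, and Hyal6 and Spam1 were listed at 0 in both libraries.

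Of the soluble binding proteins, Ptx3, which crosslinks hyaluronan together with TSG-6 and the heavy chains of inter-alpha-inhibitor, had 47 counts without strain and 105 under strain (1.44, interval 0.93 to 1.97). With 1 FPKM added its EV was 9.76 and its log2 ratio 0.96, both under the thresholds. The heavy chain genes Itih1 to Itih4 had at most 23 counts in a library, while Itih5 had 1562 and 1092 (-0.24, interval -0.35 to -0.12). C1qbp, which also has a role in mitochondria, had 1018 and 725 counts (-0.21, interval -0.35 to -0.07). Acan, a lectican like versican, had 234 counts without strain and 89 under strain (-1.11, interval -1.48 to -0.76), in contrast with the value of 0.08 for Vcan. Hapln3, a link protein, had 28 and 18 counts with an interval that included 0.

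**Figure D4:**
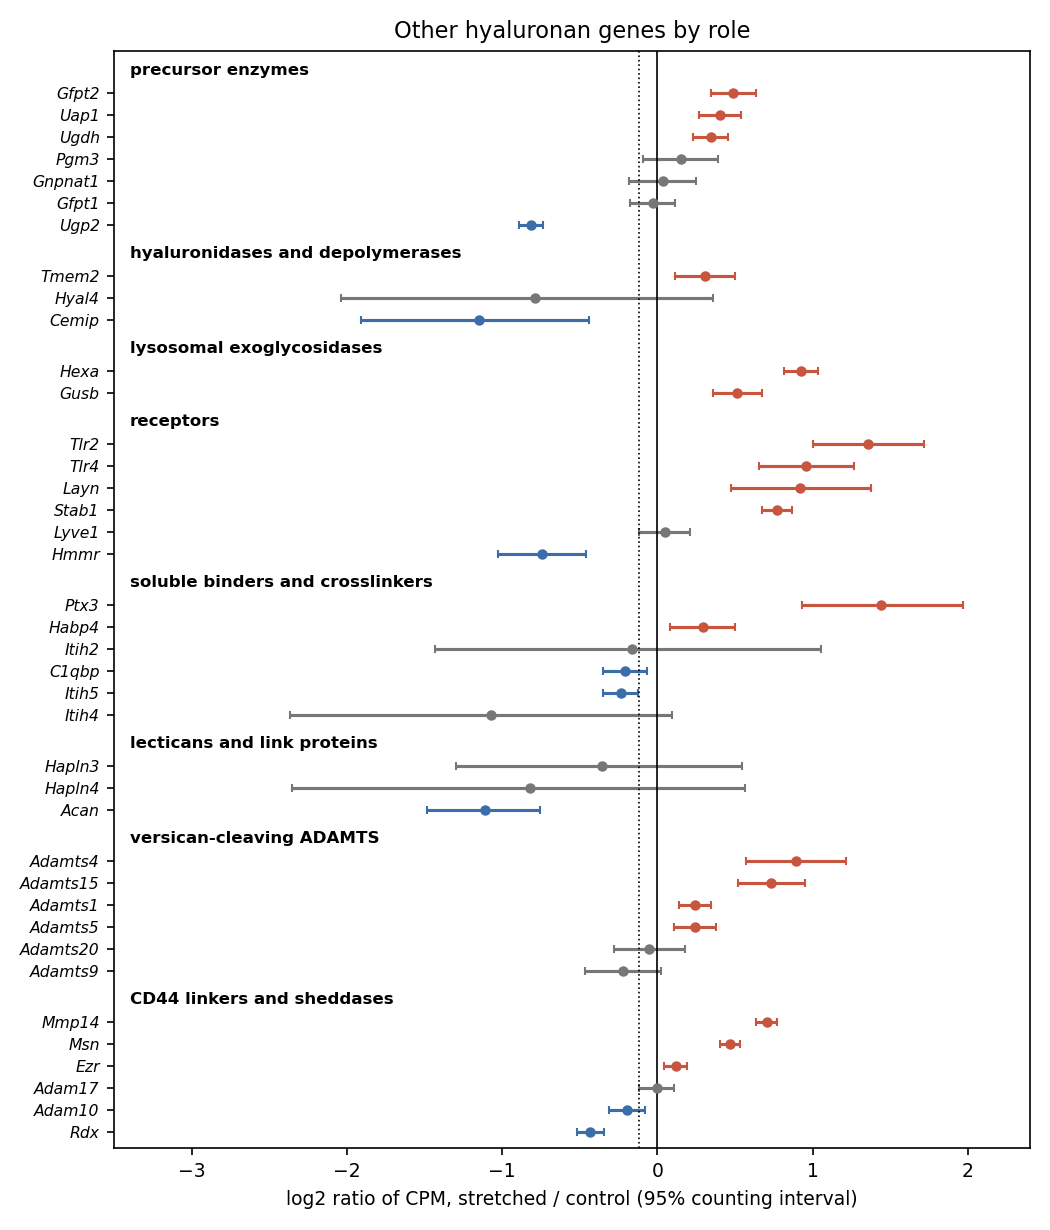
Difference between stretched and control skin for the 39 other hyaluronan genes that had 20 or more counts in all, grouped by role. The x axis is the log2 ratio of CPM, bars are exact 95% counting intervals, red marks intervals above 0, blue below 0 and grey those that include 0, and the dotted line is the median of all genes (-0.12). Ptx3 (1.44) and Tlr2 (1.36) are highest, and Cemip (-1.15) and Acan (-1.11) lowest.

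Marker genes of several cell types of whole-layer skin differed between the libraries, and in such bulk samples fewer cells of a type and less RNA per cell cannot be told apart. Markers of the labelled tissue were present, with Krt5 at 61216 and 50601 counts. Over all measured genes, 18.1% of intervals lay above 0 and 33.5% below 0. All 8 fibroblast markers and all 10 macrophage markers had intervals above 0, with median log2 ratios of 0.81 and 1.34, and their summed levels were 41189 and 77528 CPM and 644 and 1495 CPM. Within the fibroblast list Dcn (0.06), Pdgfra (0.18) and Lum (0.25) had far smaller log2 ratios than Col1a2 (0.87) and Col3a1 (0.96). The 6 measured neutrophil markers had a median of 2.48 from 14.6 and 71.6 CPM, with 6 of 6 intervals above 0 and Mpo at 0 in control skin, and the median was 1.66 after 1 CPM was added to each value. The 7 mast cell markers had a median of 0.51 (260 and 360 CPM), with 5 intervals above 0 and that of Kit below (-0.63, interval -0.86 to -0.41). The lymphatic endothelium list had a median of 0.73 (138 and 238 CPM), with 6 of its 7 measured genes having intervals above 0 and Ccl21a listed at 0 in both libraries. The keratinocyte list went both ways (median -0.18, 16072 and 16336 CPM), with 3 intervals above 0 and 4 below. The hair shaft list was lower in stretched skin (median -4.05, 5626 and 900 CPM, 8 of 8 below 0). Most of its CPM came from Krt71, an inner root sheath keratin (4267 and 755 CPM). In FPKM, Krt71 stood at percentile 99.97 of the control library, from skin that the methods describe as telogen. The hair cycle stage of each library was not tested. Likewise lower were the dermal papilla list (-0.76, 152 and 61.2 CPM, 5 of 8 below 0) and the skeletal muscle list (-0.50, 28020 and 20304 CPM, 7 of 8 below 0). So was the adipocyte list (-0.68, 1461 and 937 CPM, 8 of 8 below 0). The muscle list was uneven, as Acta1 (-0.07) turned above 0 with TMM scaling, the fast myosin gene Myh1 was upregulated (1.10, interval 1.08 to 1.12) and Myh4 was at -4.57. Of the 10 lists, those of fibroblasts, macrophages, neutrophils, mast cells and lymphatic endothelium had medians above 0, as did the 8 hyaluronan genes, and the part of any of the 10 cell types in the hyaluronan values was not tested.

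**Figure D5:**
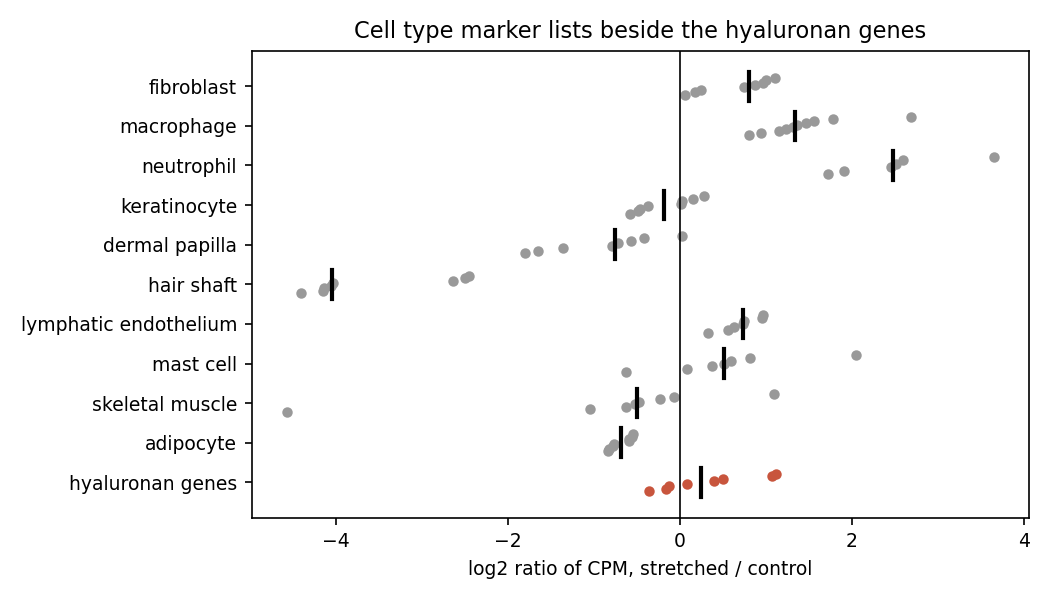
Marker genes of 10 cell types and the 8 hyaluronan genes. The x axis is the log2 ratio of CPM in stretched to control skin, each point is a gene and each vertical bar the median of its list. The hair shaft list (median -4.05) lies lowest and the neutrophil list (2.48) highest, while the hyaluronan genes (0.24) lie from -0.36 to 1.12.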

How the data were processed

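The authors deposited raw read counts per gene symbol for 2 libraries, made from quality-filtered single-end reads aligned to mm10 with TopHat2. The program that counted the reads is not given in the sources used here. Of the totals (14152379 without strain, 11648655 under strain), 3 counts make 0.212 and 0.258 CPM. Symbols were matched to GENCODE M21 on the same build by name (23384) or synonym (650) for exon union lengths and coordinates, counted from 1, and 387 had no length. From the counts, CPM, FPKM, ratios with exact Clopper-Pearson intervals, conditional odds ratios with exact intervals, and calls at the study's thresholds were computed. These FPKM values rest on total counts and exon union lengths, not on the Cufflinks estimates of the study's methods, so the calls are not the study's own. Counts of up to 3 were raised to 3 per library for ratios, which are then bounds. The study's methods name no pseudocount, and 1 FPKM was added to each value in the calls only. No p-value is given, since each condition has 1 library.

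The members and lists were chosen with earlier results of these data known, and a listed gene is not reported here. The other hyaluronan genes named are those called, those with an absolute log2 ratio of at least 1 and an interval that excludes 0, and the 2 of each role with the highest mean FPKM. Any further gene of these lists, and any single marker gene, was named after its values were seen. Shared stretches are 76-base stretches of a gene's transcripts, on either strand, that occur in transcripts of another gene. Promoter sequences are from RefSeq. The planned comparison of the proteins was not run, because protein sequences were not used here. Scaling alternatives used edgeR 4.0.16 and DESeq2 1.42.0 in R 4.3.3. Python 3.11.15, scipy 1.17.1 and matplotlib 3.10.9 were used for the rest. Intervals and calls were run on simulated Poisson counts, which carry counting error only. That run cannot show how they behave with variation between mice or libraries.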

Additional observations from a re-analysis of the deposited data

How the results depend on the processing

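Each other scaling moves every log2 ratio by 1 amount: TMM by 0.11, DESeq2's median of ratios by 0.11, the upper quartile by 0.12, and library totals that leave out the top 50 genes by 0.06. Under the first 3 of these the median of the 8 genes was 0.35, 0.35 and 0.36, that of the other hyaluronan genes 0.15, 0.15 and 0.16, and 0 of the 8 intervals lay below 0. None of the 8 genes changed sign under any scaling or with 1 CPM added to both values, which moved the median of the neutrophil list from 2.48 to 1.66. With a pseudocount of 0 or 0.1 FPKM, or with CPM in place of FPKM, 2 of the 8 genes were upregulated, Has1 and Tnfaip6. Among the other hyaluronan genes 2 were upregulated with each scaling alternative, with CPM and with the longest transcript as length, Hexa or Ptx3 being added to Tlr2. The upregulated genes in the whole table went from 285 to between 336 and 341 with the scalings and to 313 with the longest transcript. Of the other hyaluronan genes, 0 were upregulated with EV above 100, where fewer genes are tested, and 1, Acan, was downregulated with CPM. Over all genes, 285 upregulated and 266 downregulated genes became 137 and 130 with EV above 100 and 454 and 442 with CPM. The counts of other hyaluronan genes and of all genes by interval under other scalings were added after seeing the data. No paired analysis was possible because each condition has 1 library, and none could be left out. Depth limits the genes with few counts most, such as Has2os, Hyal4 and the link protein genes.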

Other observations

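The partners of versican and CD44 were measured with the other hyaluronan genes. Of the 6 ADAMTS proteases that cleave versican, 4 had intervals above 0 and 0 below, beside 18.1% and 33.5% of all genes, and the median log2 ratio was 0.24. Adamts1 had 1520 counts without strain and 1480 under strain (0.24, interval 0.14 to 0.35) and Adamts5 906 and 882 (0.24, interval 0.11 to 0.38). The largest ratios of the 6 were those of Adamts4 with 133 and 203 counts (0.89, interval 0.57 to 1.22) and of Adamts15 with 314 and 430 (0.73, interval 0.52 to 0.95), both named after their values were seen.

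The 3 proteins that link CD44 to actin went in different directions. Msn, the form most abundant in leukocytes and endothelium, had 3706 and 4226 counts (0.47, interval 0.41 to 0.53), close to the value of 0.40 for Cd44. Ezr, the form of epithelia, had 3325 and 2969 (0.12, interval 0.05 to 0.19), and Rdx, named after its values were seen, had 2760 and 1685 (-0.43, interval -0.52 to -0.34). Among the proteases that shed CD44, all 3 named after their values were seen, Mmp14 had 2963 and 3973 counts (0.70, interval 0.64 to 0.77), while Adam10 had 1513 and 1088 (-0.19, interval -0.31 to -0.08). Adam17 had 1395 and 1145, with an interval that included 0 (-0.12 to 0.11). These values have no replicate check.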
